A study of Mus musculus with 4 samples.

Results

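The regions described here are the ATAC-seq peaks of mouse neutrophils that lie in the first intron of an annotated gene and outside annotated repeats and CpG islands. They were taken from the deposited consensus table as the rows whose detailed annotation begins with an intron and names intron 1 of its transcript, a rule that reads the annotation and no measured value. This gave 1976 of 23595 peaks (8.37%), in 1417 host genes, a host gene being the gene whose transcript holds the intron. Chromatin accessibility was measured in neutrophils flow-sorted from bone marrow and not cultured. The 4 libraries form 2 groups, namely 2 libraries of Morrbid-deficient neutrophils (KO, background C57BL6) and 2 of WT C57BL6 neutrophils. The labels give 50000 cells of each genotype, transposed in duplicate, with no age, no account of the allele and no mention of separate animals, so the p-values below reflect the spread of these libraries alone, and that spread may be technical.

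In ATAC-seq, the Tn5 transposase cuts open chromatin and leaves sequencing adapters there, and reads pile up where nucleosomes are displaced. The first intron begins at the end of the first exon, so its near end often falls inside the open region of the promoter, while its interior commonly holds enhancers. Neutrophils are phagocytes that live only briefly and kill microbes with granule enzymes and oxidants. Morrbid makes a long non-coding RNA, which the study's title links to Bim (Bcl2l11, a pro-apoptotic member of the BCL2 family) and to how long such myeloid cells live. Setting KO beside WT asks where accessibility differed in cells without Morrbid.

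Peaks that begin in the first intron and run back over the start site reach into the promoter of their host gene. Of the peaks described by name below, 6 that passed the test cover the listed transcription start site (TSS) of their own gene and have a single matched start in the RefSeq promoter table (build GRCm38.p6). These 6 sequences are shown as promoter DNA that such peaks reach into. The signal was measured over each whole peak, so the differences are not placed within these bases. Each is the 250 bases before the RefSeq start, 5′ to 3′ on the gene's own strand. They are Anxa1 at chr19:20390672-20390921 (minus strand), Crlf2 at chr5:109558994-109559243 (minus), Lyz2 at chr10:117282273-117282522 (minus), Sem1 at chr6:6578659-6578908 (minus), Tlr13 at chrX:106143025-106143274 (plus) and Cxcr4 at chr1:128592300-128592549 (minus). The peaks themselves are given in mm9, the build of the deposited table, and their own sequence was not analysed here. By width and centre, the peaks reached from 119.5 bp (Lyz2) to 702.5 bp (Cxcr4) upstream of the listed TSS, so the Cxcr4 peak spans the whole window if the start sites of the builds coincide and the other 5 cover its 3′ part. Capitals mark every match, on either strand, to 5 motifs: C/EBP (TTGCNNAA), PU.1 (GAGGAAGT), RUNX (TGTGGT), AP-1 (TGANTCA) and the GC box (GGGCGG). Anxa1, Crlf2, Lyz2 and Sem1 were higher in KO, and Tlr13 and Cxcr4 were lower in KO.
Anxa1: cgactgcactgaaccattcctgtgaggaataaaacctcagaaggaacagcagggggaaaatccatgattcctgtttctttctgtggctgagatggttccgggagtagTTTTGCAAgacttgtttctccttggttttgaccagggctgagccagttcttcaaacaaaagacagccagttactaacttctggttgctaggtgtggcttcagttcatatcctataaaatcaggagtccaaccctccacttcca
Crlf2: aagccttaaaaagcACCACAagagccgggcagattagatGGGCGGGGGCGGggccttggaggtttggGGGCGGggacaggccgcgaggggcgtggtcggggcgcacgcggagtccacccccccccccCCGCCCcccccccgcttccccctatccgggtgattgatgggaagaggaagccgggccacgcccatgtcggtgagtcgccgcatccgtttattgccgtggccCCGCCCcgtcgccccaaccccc
Lyz2: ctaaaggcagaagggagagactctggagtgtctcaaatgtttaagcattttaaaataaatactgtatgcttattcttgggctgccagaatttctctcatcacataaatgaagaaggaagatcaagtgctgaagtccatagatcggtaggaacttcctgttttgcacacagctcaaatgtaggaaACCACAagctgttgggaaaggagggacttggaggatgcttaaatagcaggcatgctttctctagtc
Sem1: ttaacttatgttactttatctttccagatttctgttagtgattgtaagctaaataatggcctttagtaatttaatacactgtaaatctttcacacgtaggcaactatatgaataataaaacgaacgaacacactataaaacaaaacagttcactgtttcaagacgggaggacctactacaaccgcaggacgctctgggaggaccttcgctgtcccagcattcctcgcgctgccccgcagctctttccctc
Tlr13: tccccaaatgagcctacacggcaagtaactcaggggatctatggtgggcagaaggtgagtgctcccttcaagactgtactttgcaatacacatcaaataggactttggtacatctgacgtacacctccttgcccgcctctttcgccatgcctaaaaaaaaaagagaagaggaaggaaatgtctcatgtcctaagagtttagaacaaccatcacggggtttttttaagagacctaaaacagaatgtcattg
Cxcr4: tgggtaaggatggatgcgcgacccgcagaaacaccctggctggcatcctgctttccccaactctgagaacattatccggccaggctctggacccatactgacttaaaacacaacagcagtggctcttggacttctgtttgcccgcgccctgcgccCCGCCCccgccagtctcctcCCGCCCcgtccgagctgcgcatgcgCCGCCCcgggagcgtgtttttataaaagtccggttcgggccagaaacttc
The Anxa1 window holds a C/EBP match at 143 to 136 bases before the start, and the Lyz2 window a RUNX match at 66 to 61 bases before it. Crlf2 holds 5 GC boxes and 1 RUNX match, Cxcr4 holds 3 GC boxes, and Sem1 and Tlr13 hold none of the 5 motifs. No 2 matches overlap. Among 32851 RefSeq promoters of the same length, 9.56% hold the C/EBP letters, 2.44% PU.1, 14.0% RUNX, 6.75% AP-1 and 32.7% a GC box. The matches describe the letters only.

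First-intron peaks lay close to the start of their gene. Their median absolute distance to the nearest TSS was 8123.5 bp, against 30030 bp for the 3514 peaks in later introns outside repeats and CpG islands, and 346 of them (17.5%) lay within 1000 bp, against 24 later-intron peaks (0.683%). In 1830 (92.6%) the nearest TSS was that of the host gene, and 1805 lay downstream of the nearest TSS. Their median width was 488.5 bp, against 451 bp in later introns and 573 bp over all peaks. The host gene had 1 such peak in 1081 cases, 2 or more in 336 and 5 or more in 25. Another 1376 peaks sat in a first intron but were annotated as a repeat or a CpG island and are not members. Of the 1417 host genes, 793 (56.0%) had a separate promoter peak.

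Depth followed genotype. With the step between values of a library taken as 1 read, reads in first-intron peaks came to 374069 (KO replicate 1), 485811 (KO replicate 2), 223752 (WT replicate 1) and 229137 (WT replicate 2), and the median peak had 116 and 152 reads in KO, against 72 and 75 in WT. Over first-intron peaks, Pearson's correlation of log2 signal was 0.971 within KO and 0.943 within WT, and 0.906 to 0.916 between genotypes. As a check of the sorted cells, 11 of 14 neutrophil markers had a promoter peak, and Mpo, Elane and Mmp9 did not, while 0 of 7 B cell, 0 of 9 T cell and 0 of 6 NK cell markers had one. In a longer T cell list, 1 of 15 genes had one, with a signal of 78.6 and 76.2 in KO, against 60.2 and 57.1 in WT. Of the other lists, 2 of 7 monocyte and macrophage markers (Csf1r, Ly6c2), 1 of 10 eosinophil, mast cell and basophil markers (Kit), 1 of 7 erythroid and megakaryocyte markers (Tal1) and 4 of 5 progenitor markers (all but Mecom) had one. The summed promoter signal of the monocyte and macrophage markers was 178 and 171 in KO, against 169 and 139 in WT, and that of the longer list of 10 such genes 286 and 284 in KO, against 313 and 260 in WT. For the eosinophil, mast cell and basophil markers it was 300.2 and 261 in KO, against 354 and 345 in WT, lower in both KO libraries. For the erythroid and megakaryocyte markers it was 366 and 317 in KO, against 311 and 340 in WT. For the progenitor markers it was 676 and 673 in KO, against 622 and 633 in WT, and for the neutrophil markers 3911 and 4149 in KO, against 4052 and 3432 in WT. The part of these markers in the results below was not tested.

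As a class, first-intron peaks held the same share of the signal in both genotypes within the spread of the libraries. They took 6.05% and 6.13% of the signal in KO libraries, against 6.25% and 6.02% in WT libraries (KO minus WT -0.0509 percentage points, p = 1 by a two-sided exact permutation test, where 0.333 is the smallest p that 2 against 2 libraries allow). They were stronger than later-intron peaks in every library, with a median log2 signal higher by 0.270 and 0.291 in KO and by 0.260 and 0.295 in WT. This lead over later introns did not differ detectably between genotypes (difference 0.00276, exact permutation p = 1), and its sign turned under cyclic loess scaling (-0.0179, exact permutation p = 0.667).

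Peak by peak, 91 first-intron peaks were more accessible in KO and 59 were less accessible, while 1826 did not pass (limma on log2(signal + 1), Benjamini-Hochberg adjusted p below 0.05 over all 23595 peaks). That is 4.61% higher and 2.99% lower, against 6.08% higher and 4.55% lower over all peaks (10.6% in either direction), and 4.61% higher and 2.39% lower for later-intron peaks. The difference between these shares was not tested. The libraries of the genotypes did not overlap in 1069 members (54.1%), against 55.3% of all peaks. The median log2 fold change, KO over WT, was 0.01 over first-intron peaks and -0.0019 over all peaks. Changes were modest: peaks called higher had a median 1.52-fold gain and peaks called lower a median 1.76-fold loss, and 10 and 15 of them reached 2-fold. Over all 23595 peaks these medians were 1.40-fold and 1.74-fold, and 88 gains and 289 losses reached 2-fold. Of the 15 first-intron losses of 2-fold, 9 lay at 50000 bp or more, and 1 without the peaks of Zfp982 and Morrbid. The calls rest on the model, on few libraries and on the scaling. Without the mean-variance trend limma called 0 higher and 3 lower (219 and 195 at an unadjusted p below 0.05). Of the 47 called peaks followed by name through the alternatives, 44 lost their call without the trend. With the trend, 252 and 206 first-intron peaks passed that unadjusted threshold, beside 3232 and 2949 of all 23595 peaks. Leaving out KO replicate 1 gave 19 higher and 17 lower, leaving out KO replicate 2 gave 9 higher and 15 lower, and without a WT library they numbered 218 and 122 (without WT replicate 1) or 146 and 125 (without WT replicate 2). Median centring gave 148 higher and 46 lower, and scaling to the total over peaks 52 higher and 80 lower. The counts over all 23595 peaks moved with these choices too. Like those of first-intron peaks, both all-peak counts fell without either KO library and rose without either WT library. The all-peak counts were 1434 higher and 1074 lower as deposited, 2248 and 777 under median centring, and 879 and 1319 under scaling to the total. Without the trend 0 and 22 of all peaks were called.

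The calls that stood with each library left out in turn were 6 higher and 8 lower. The higher ones include the peaks of Dock9, Anxa1 (the one over the TSS), Acod1, Crlf2 and Fam214b. The lower ones were both peaks of Morrbid, 2 of Zfp982, and those of 4931408C20Rik, Lmbrd1, Ksr1 (the one nearest the TSS) and Fis1. All other called first-intron peaks lost their call without at least 1 library, and the adjusted p is given below for many of the named ones.

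**Figure D1:**
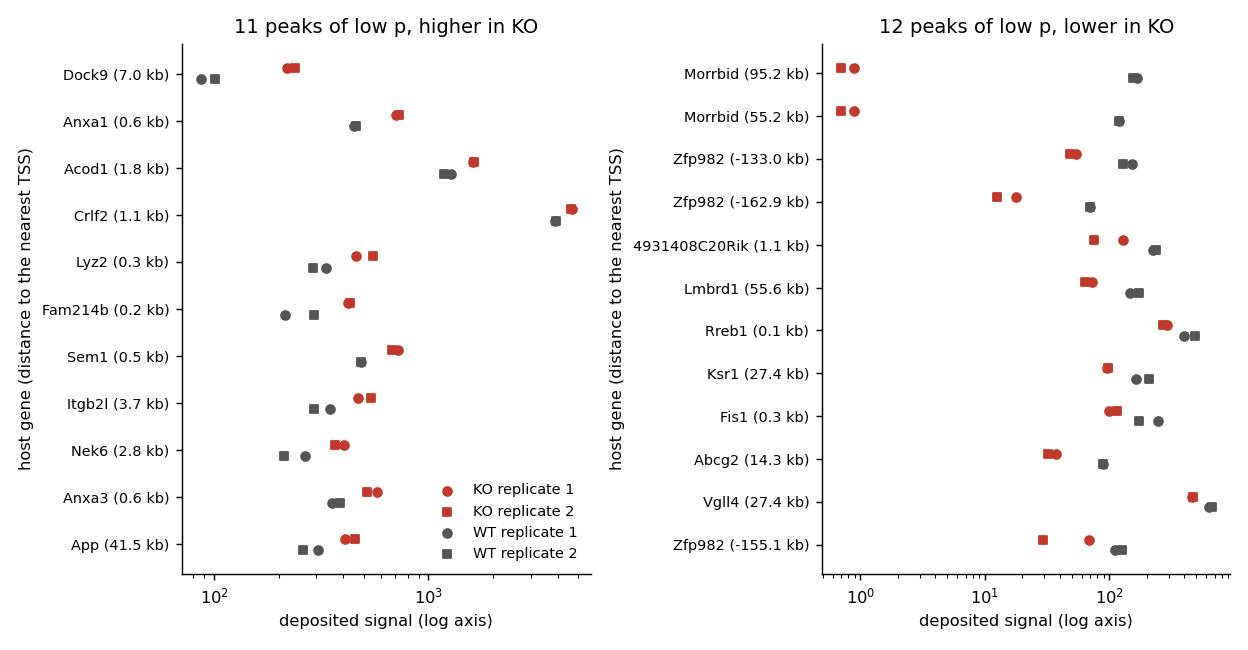
Deposited signal (log axis) in each library for first-intron peaks of low p, 11 called higher in KO (left) and 12 called lower in KO (right). Each row is 1 peak named by its host gene with the distance to the nearest TSS, KO libraries are red and WT libraries grey, and circles and squares are replicates 1 and 2. KO and WT libraries do not overlap in any of these peaks, which were picked among called peaks without such an overlap, and the 2 Morrbid peaks stand apart with KO signals of 0.883 and 0.693.

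Morrbid carried the largest changes of all first-intron peaks. The gene, listed under its older symbol Gm14005, has 2 first-intron peaks on chromosome 2, at 128159688 to 128160093 (95197 bp downstream of its TSS) and at 128199719 to 128200105 (55175 bp downstream). The farther peak had a signal of 0.883 and 0.693 in KO libraries, against 165.8 and 154.5 in WT libraries (log2 fold change -6.50, SE 0.476, limma adjusted p = 3.14e-09). With a signal this low the fold change follows the pseudocount, at -6.97 with 0.5 and -4.83 with 5. The nearer peak had 0.883 and 0.693 in KO, against 120.3 and 119.7 in WT (log2 fold change -6.08, SE 0.508, limma adjusted p = 2.95e-08), with -6.55 and -4.43 under those pseudocounts. In reads, 2 over both KO libraries stood against 224 over both WT libraries in the farther peak, a depth-adjusted ratio of KO over WT of 0.00467 with an exact 95% interval from 0.000562 to 0.0171, which covers counting error only. In the nearer peak 2 KO reads stood against 168 WT reads (ratio 0.00623, interval 0.000748 to 0.0228). No KO value is listed below 1 read, so that a listed 1 may be a 0. If both KO values of a peak were 0, its ratio and the lower bound of its interval would be 0 too. Deleted DNA and closed chromatin cannot be told apart at these peaks. Bcl2l11 and Acoxl, on the same chromosome, host no first-intron peak of this class.

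Among the peaks that gained accessibility, Dock9, which activates the small GTPase Cdc42, had the lowest p. Its peak at 122130934 to 122131447 on chromosome 14, 6961 bp inside the gene, had a signal of 218 and 238 in KO, against 86.6 and 101.6 in WT (log2 fold change 1.27, SE 0.182, limma adjusted p = 8.65e-05). Both KO libraries were more than 2-fold above both WT libraries. Acod1, listed as Irg1, makes itaconate in activated myeloid cells. Its peak 1754 bp downstream of the TSS had 1614 and 1638 in KO, against 1275 and 1179 in WT (log2 fold change 0.41, SE 0.0701, limma adjusted p = 0.000586). Crlf2 encodes the receptor subunit for thymic stromal lymphopoietin. Its peak, the strongest first-intron peak in WT, ran over the TSS and had 4670 and 4646 in KO, against 3913 and 3922 in WT (log2 fold change 0.25, SE 0.0433, limma adjusted p = 0.000635). This gain was small and depended on the scaling, with an adjusted p = 0.868 under cyclic loess.

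Anxa1 gained at all of its first-intron peaks. Annexin A1 is a phospholipid-binding protein, abundant in neutrophils, that damps inflammation. The peak over the TSS, at 20463755 to 20465307 on chromosome 19, had 705 and 730 in KO, against 448 and 458 in WT (log2 fold change 0.66, SE 0.1, limma adjusted p = 0.000155). The peak 2796 bp downstream had 134 and 123 in KO, against 95.4 and 43.1 in WT (log2 fold change 0.99, adjusted p = 0.0205), and the one 4202 bp downstream had 161.6 and 179 in KO, against 110.1 and 94.6 in WT (log2 fold change 0.73, adjusted p = 0.0149). The KO libraries lay above the WT libraries at each, though at the peak 4202 bp downstream the call was lost without KO replicate 1 (adjusted p = 0.12) or KO replicate 2 (adjusted p = 0.282), and the peak 2796 bp downstream is not among those called without each library in turn. Anxa3, another annexin, had 573 and 515 in KO at its TSS, against 355 and 386 in WT (log2 fold change 0.55, adjusted p = 0.00268, 0.144 without KO replicate 1).

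Further gains over start sites were seen in Lyz2, Fam214b and Sem1. Lyz2, the lysozyme gene of myeloid cells, had 461 and 549 in KO, against 332 and 289 in WT at the peak over its TSS (log2 fold change 0.70, limma adjusted p = 0.000832, 0.0953 without KO replicate 2). Fam214b had 419 and 432 in KO, against 214 and 292 in WT (log2 fold change 0.76, adjusted p = 0.00105). Its call held without each library. Sem1, listed as Shfm1, is a proteasome subunit and had 722 and 676 in KO, against 486 and 484 in WT (log2 fold change 0.53, adjusted p = 0.00137, 0.0836 without KO replicate 1). Itgb2l, a neutrophil integrin subunit, had 467 and 538 in KO, against 348 and 294 in WT at 3685 bp (log2 fold change 0.65, adjusted p = 0.00152, 0.113 without KO replicate 2). Nek6, a mitotic kinase, had 404 and 368 in KO, against 266 and 212 in WT at 2754 bp (log2 fold change 0.70, adjusted p = 0.00221, 0.0789 without KO replicate 1). App, the amyloid precursor gene, gained deep in its intron, with 408 and 455 in KO, against 307 and 260 in WT at 41456 bp (log2 fold change 0.61, adjusted p = 0.00358, 0.164 without KO replicate 2).

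Among the other losses, a group lay in Zfp982, a zinc finger gene on chromosome 4, where all 6 first-intron peaks were called lower (log2 fold change -2.16 to -1.04). Their nearest listed TSS, from 130002 to 169635 bp away, is that of Gm13154 for 4 peaks and of Gm13152, an older symbol of Zfp982, for 2. The peak at 146794280 to 146794538 had 53.9 and 48.5 in KO, against 152.6 and 129.4 in WT (log2 fold change -1.44, SE 0.23, limma adjusted p = 0.000289). The one at 146764316 to 146764579 had 17.7 and 12.5 in KO, against 70.4 and 69.6 in WT (log2 fold change -2.16, SE 0.353, limma adjusted p = 0.00037). These genes have close copies, so reads may be shared between them and the assignment is uncertain. Without KO replicate 2, 2 of the 6 were called, and 5 were under median centring, under cyclic loess and without each of the other libraries.

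Ksr1, a scaffold of the Ras to MAP kinase cascade, had all 4 of its first-intron peaks called lower, as Zfp982 and Morrbid had all of theirs. The 4 peaks lay between 27351 and 59284 bp from the nearest TSS (log2 fold change -0.93 to -0.71). Ksr1 lies on chromosome 11, where 9.73% of all peaks were called lower. The Ksr1 peak nearest the TSS, at 78932144 to 78932867, had 96.3 and 97.0 in KO, against 164 and 209 in WT (log2 fold change -0.93, SE 0.192, limma adjusted p = 0.00275). With KO replicate 1 or with KO replicate 2 left out, 2 of the 4 were called. The next losses were single peaks. 4931408C20Rik had 128 and 75.5 in KO, against 225 and 235 in WT (log2 fold change -1.22, adjusted p = 0.000513). Lmbrd1, needed for lysosomal cobalamin export, had 72.4 and 63.7 in KO, against 145.3 and 174 in WT (log2 fold change -1.21, adjusted p = 0.000677). Rreb1, a Ras-responsive zinc finger factor, had 291 and 269.5 in KO, against 399 and 487 in WT at its TSS (log2 fold change -0.65, adjusted p = 0.00213, 0.0614 without KO replicate 2).

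Fis1, a mitochondrial fission factor, had 99.8 and 115 in KO, against 247 and 173 in WT at its TSS (log2 fold change -0.94, limma adjusted p = 0.00275). Abcg2, an efflux transporter, had 37.1 and 31.9 in KO, against 88.1 and 89.1 in WT (log2 fold change -1.34, adjusted p = 0.00277, 0.0648 without KO replicate 2). Vgll4, a cofactor of TEAD transcription factors, had 464 and 465 in KO, against 633 and 665 in WT (log2 fold change -0.48, adjusted p = 0.00342, 0.0707 without KO replicate 1 and 0.0817 without KO replicate 2). These 3 peaks lie at 272, 14268 and 27415 bp, and KO lies below WT at each. Cyth4, which activates Arf GTPases, had 36.2 and 43.6 in KO, against 70.4 and 116.9 in WT (log2 fold change -1.17, adjusted p = 0.00982, 0.116 without KO replicate 1 and 0.0587 without WT replicate 2). Pip5k1c, a phosphoinositide kinase, had 129 and 143 in KO, against 230.4 and 199 in WT (log2 fold change -0.65, adjusted p = 0.0153, 0.215 without KO replicate 1 and 0.107 without KO replicate 2).

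**Figure D2:**
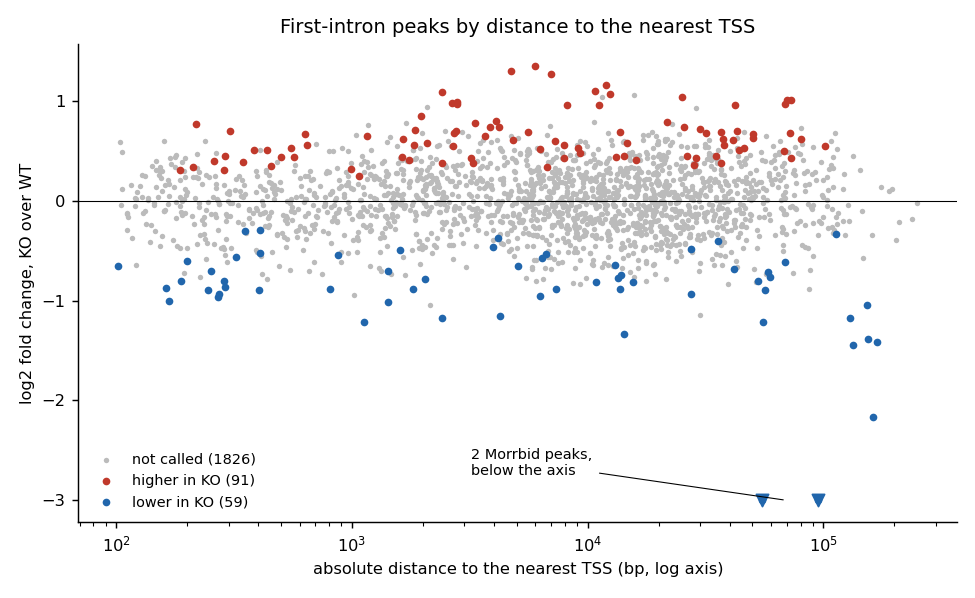
Log2 fold change (KO over WT) of the 1976 first-intron peaks against the absolute distance to the nearest TSS (bp, log axis), with 91 peaks called higher in red, 59 called lower in blue and 1826 not called in grey. Calls in both directions occur at every distance, the 2 Morrbid peaks (-6.50 and -6.08) are drawn as triangles at the foot of the axis, and the 6 Zfp982 peaks form the low group at the far right.

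By distance, the called peaks showed no steady trend. Within 1000 bp of a TSS, 17 of 346 were higher and 18 lower (4.91% and 5.20%, against 7.6% and 5.8% of all peaks at that distance). From 1000 to 2000 bp, 8 of 171 were higher and 5 lower, with 5.49% and 4.85% of all peaks there. From 2000 to 5000 bp, gains were more numerous, with 18 of 260 higher and 5 lower (6.92% and 1.92%, against 5.95% and 4.47% of all peaks). At 5000 to 10000 bp, 11 of 316 were higher and 5 lower (all peaks 4.32% and 3.57%), and at 10000 to 20000 bp 9 of 342 were higher and 7 lower (all peaks 3.75% and 3.49%). At 20000 to 50000 bp, 18 of 361 were higher and 4 lower (4.99% and 1.11%, against 4.57% and 3.99% of all peaks). Beyond 50000 bp, 10 of 180 were higher and 15 lower (5.56% and 8.33%, against 6.56% and 3.49% of all peaks), while of 1191 later-intron peaks that far out 85 were higher and 13 lower. These 15 include the 6 peaks of Zfp982 and the 2 of Morrbid. Without both genes 7 of 172 were lower (4.07%). The median log2 fold change ran from -0.02 (within 1000 bp) to 0.08 (2000 to 5000 bp).

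**Figure D3:**
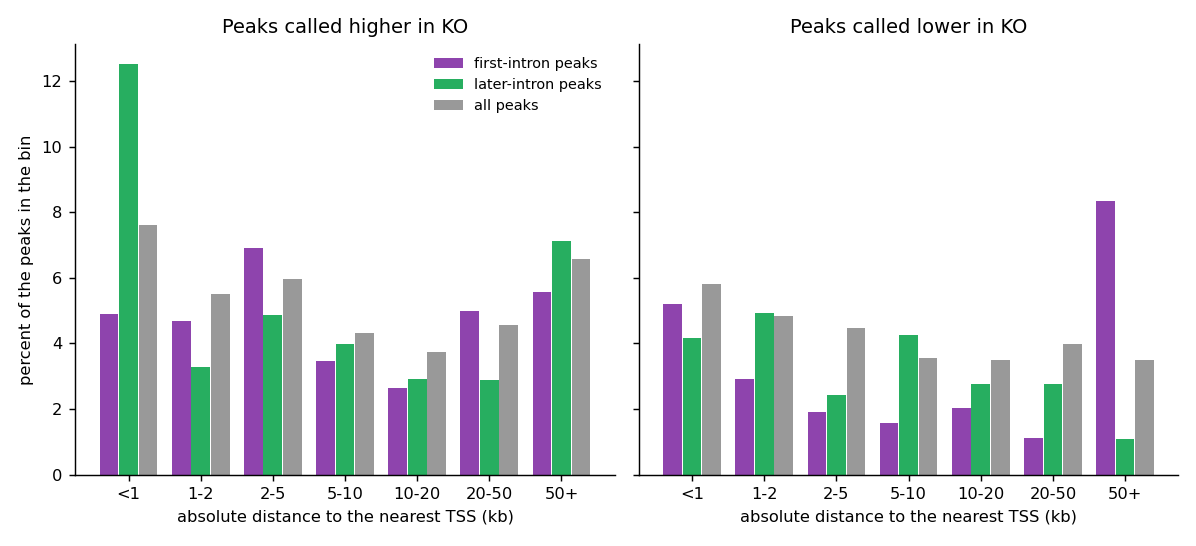
Percent of peaks called higher (left) and lower (right) in KO by absolute distance to the nearest TSS (kb), for first-intron peaks (purple), later-intron peaks (green) and all peaks (grey). First-intron peaks at 50 kb or more have 8.33% called lower, against 1.09% of later-intron peaks and 3.49% of all peaks, and 8 of those 15 lie in Zfp982 and Morrbid.

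Within 1000 bp the called gains were peaks over the TSS. Of the 231 peaks that cover the nearest TSS, 18 were higher and 14 lower (7.79% and 6.06%), with a median signal of 208.8. Of the 116 peaks under 1000 bp that do not cover it, 0 were higher and 4 lower in limma's adjusted test (7 higher and 17 lower at an unadjusted p below 0.05), with a median signal of 81.7. Of all 9082 peaks within 1000 bp, 1428 were higher and 1465 lower at that unadjusted threshold. Signal strength differs between these sets, and its part was not tested. Upstream of the nearest TSS lay 171 members, with 6 higher and 9 lower (3.51% and 5.26%), and downstream 1805, with 85 higher and 50 lower (4.71% and 2.77%). Where the nearest TSS belonged to another gene than the host, 3 of 146 were higher and 10 lower (2.05% and 6.85%). Of those 10 losses, and of the 9 upstream, 4 are peaks of Zfp982. Over all peaks 6.08% were higher and 4.55% lower.

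Called gains were most frequent among strong peaks. In the decile of highest mean signal over all peaks, 18 of 84 first-intron peaks (21.4%) were higher and 4 lower (4.76%), against 24.9% and 2.03% of all peaks. In the next decile 17 of 146 were higher and 4 lower (11.6% and 2.74%, against 10.1% and 2.54% of all peaks). In the lowest decile 7 of 221 were higher and 3 lower (3.17% and 1.36%, against 1.53% and 3.26% of all peaks), and the decile above it had 3 of 240 higher and 8 lower (1.25% and 3.33%, against 1.06% and 4.66% of all peaks). First-intron peaks of the strongest decile had a median log2 fold change of 0.11 and those of the weakest 0.01, against 0.15 and -0.03 over all peaks. Strong peaks have more reads, and KO libraries are the deeper ones. The part of depth in this pattern was not tested.

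**Figure D4:**
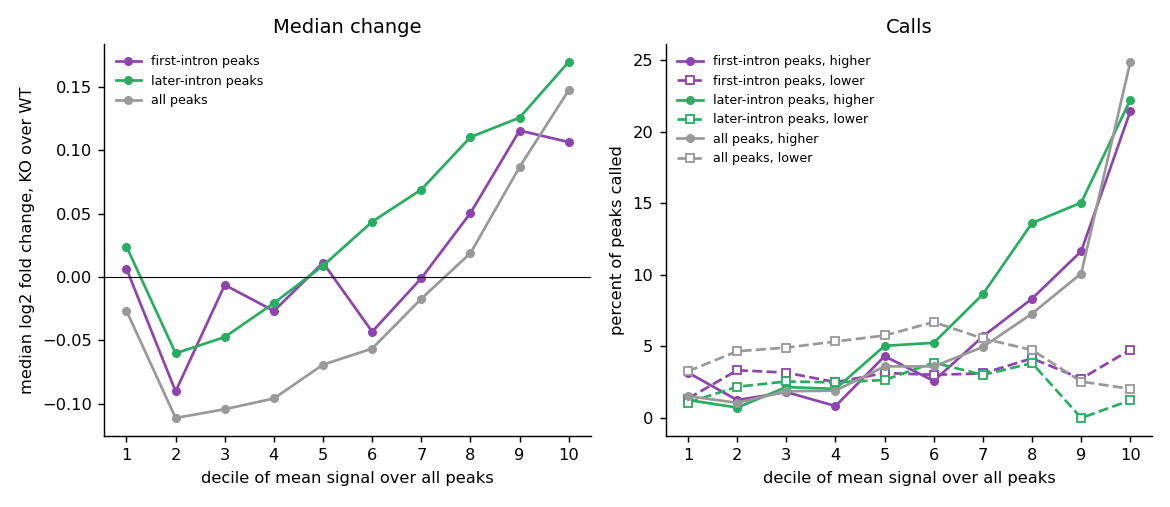
Median log2 fold change (left) and percent of peaks called (right, solid for higher and dashed for lower in KO) by decile of mean signal over all peaks, 1 weakest and 10 strongest, for first-intron (purple), later-intron (green) and all peaks (grey). The share called higher in the strongest decile is 21.4% for first-intron peaks and 24.9% for all peaks.

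Of the 8 strongest first-intron peaks in WT, only that of Crlf2 was called. Btg2, an anti-proliferative gene, had 2297 and 2445 in KO, against 2436 and 2270 in WT. Pde1a, a cyclic nucleotide phosphodiesterase, has 2 of them deep in its intron, at 48212 and 103296 bp. The nearer had 2150 and 2075 in KO, against 2072 and 2092 in WT. The farther had 2163 and 2051 in KO, against 2083 and 2107 in WT. Fam160a2 had 2305 and 2547 in KO, against 2065 and 2264 in WT (log2 fold change 0.16, limma adjusted p = 0.0895). Herpud1, a protein of the endoplasmic reticulum stress response, had 1613 and 1605 in KO, against 1811 and 1779 in WT (log2 fold change -0.16, limma adjusted p = 0.109). Dhrs9 and Amn1, with mean signals of 1917 and 2143 in KO, against 1827 and 2153 in WT, did not pass either.

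Host genes with several peaks rarely moved as a whole. The 336 such genes held 895 peaks, of which 63 were called, beside 7.59% called over all first-intron peaks and 10.6% over all peaks. Of these genes, 48 held a called peak and 8 held 2 or more, and in each of those 8 all calls went one way. They are Anxa1 (3 of 3 higher), Ryr2 (2 of 4 higher), Apbb1ip (2 of 3), Akap6 (2 of 2), Zfp982 (6 of 6 lower), Ksr1 (4 of 4), Ubash3b (2 of 7) and Morrbid (2 of 2). Ryr2, a calcium release channel, had 139 and 154 in KO, against 83.7 and 62.6 in WT at 72765 bp (log2 fold change 1.002, limma adjusted p = 0.00426, 0.135 without KO replicate 2). Akap6, an anchoring protein of protein kinase A, had 97.1 and 147.6 in KO, against 63.1 and 48.7 in WT at 10705 bp (log2 fold change 1.10, limma adjusted p = 0.00642, 0.334 without KO replicate 2). The 5 genes with the most first-intron peaks were Tnfaip8 with 9, Cmip with 8, and Etv6, Iqsec1 and Ubash3b with 7 each. Tnfaip8 and Cmip had no called peak, with log2 fold changes from -0.35 to 0.35 in Tnfaip8 and from -0.38 to 0.41 in Cmip. Etv6, an ETS family repressor, came closest at 79811 bp, with 233 and 273 in KO, against 181 and 184 in WT (limma adjusted p = 0.051). Iqsec1 had 1 peak called higher, with 305 and 342 in KO, against 229 and 244 in WT (adjusted p = 0.0375, 0.183 without KO replicate 1 and 0.474 without KO replicate 2). Ubash3b, a phosphatase that restrains tyrosine kinase signalling, had 2 called lower, of which the one at 4241 bp had 43.3 and 25.6 in KO, against 91.0 and 62.6 in WT (adjusted p = 0.0188, 0.366 without KO replicate 2).

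**Figure D5:**
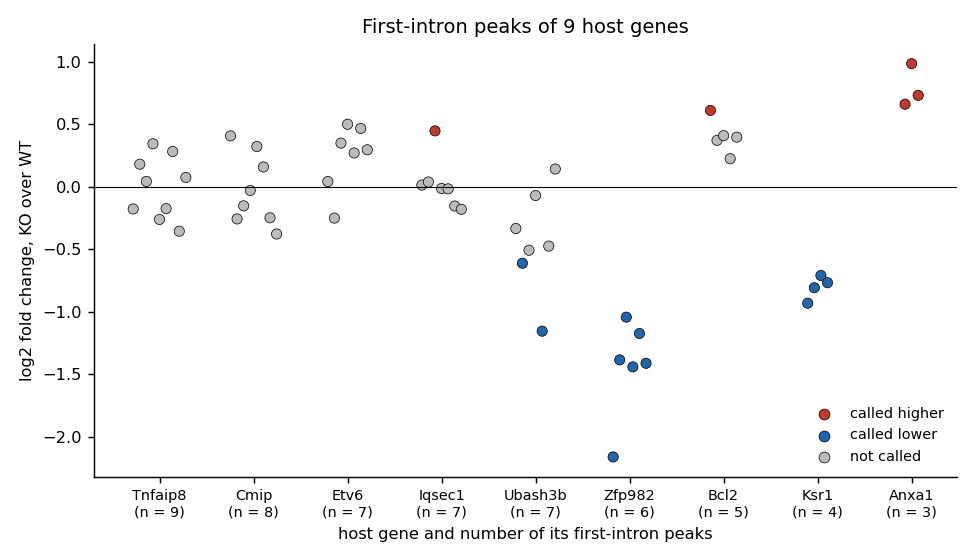
Log2 fold change (KO over WT) of every first-intron peak of 9 host genes, each dot 1 peak, red for called higher, blue for called lower and grey for not called, ordered within a gene by signed distance to the nearest TSS. Zfp982 (6 peaks), Ksr1 (4) and Anxa1 (3) have all their peaks called in 1 direction, while Tnfaip8 (9) and Cmip (8) have none called and values on both sides of 0.

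Some host genes had a separate promoter peak, which was called in a minority of cases. Of the 91 peaks called higher, 45 had such a host, and in 11 of these a promoter peak was called higher (24.4%) and in 3 lower (6.67%). Of the 59 called lower, 25 had one, with 0 higher and 2 lower (8%). For comparison, 1181 of all first-intron peaks had such a host, 79 of them with a promoter called higher (6.69%) and 65 with one called lower (5.50%). The difference between these shares was not tested.

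By function, the counts per gene list stayed small, and they stand beside 6.08% higher and 4.55% lower over all peaks, whose median log2 fold change was -0.0019. At an unadjusted p below 0.05 in limma, 3232 of all 23595 peaks were higher and 2949 lower. The neutrophil granule and effector list had 12 first-intron peaks in 9 of its 34 genes, and 5 were higher and 0 lower (6 and 1 at an unadjusted p below 0.05), with a median log2 fold change of 0.24 (0.14 without KO replicate 2). The 5 include the 3 peaks of Anxa1 and that of Lyz2, described above, and the count fell to 2 without KO replicate 2 and 3 without KO replicate 1. Cyba, the membrane subunit of the NADPH oxidase, was called lower under scaling to the total, with 187 and 181 in KO, against 242 and 259 in WT (log2 fold change -0.44, adjusted p = 0.0608 as deposited). S100a9 and S100a8, the calprotectin genes, did not pass. S100a9 had 906 and 954 in KO, against 895 and 688 in WT, and S100a8 had 791 and 797 in KO, against 800 and 701 in WT.

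The apoptosis list had 11 peaks in 6 of its 47 genes, with 1 called higher and 0 lower. At an unadjusted p below 0.05 in limma, 5 and 0 passed, beside 3232 and 2949 of all 23595 peaks. Their median log2 fold change was 0.38 (0.18 without WT replicate 2), and 10 of the 11 values were above 0 (9 under scaling to the total or cyclic loess, 11 under median centring). Of those 11, 5 lie in Bcl2, the founding anti-apoptotic gene of its family, and all 5 were positive, from 0.23 to 0.61, under each scaling too. The called one, at 108523657 to 108524302 on chromosome 1, had 338 and 309 in KO, against 204 and 219 in WT (log2 fold change 0.61, SE 0.141, limma adjusted p = 0.00663). Without KO replicate 1 its adjusted p was 0.191 and without KO replicate 2 it was 0.0798. Its nearest listed TSS is not that of Bcl2 but of Mir3473f, 80771 bp away. The next, at 108478276, had 353 and 360 in KO, against 257 and 295 in WT (adjusted p = 0.0678). Casp4, an inflammatory caspase, had 310 and 278 in KO, against 261 and 191 in WT (adjusted p = 0.102), and Cflar, an inhibitor of death receptor signalling, had 256 and 240 in KO, against 219 and 164 in WT at 6944 bp (adjusted p = 0.124).

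Transcription factor and chromatin genes had calls in both directions. Of 44 peaks in 24 of 67 myeloid transcription factor genes, 1 was higher and 2 were lower. Klf13, a Kruppel-like factor, had 760 and 741 in KO, against 590 and 565 in WT (log2 fold change 0.38, limma adjusted p = 0.0115). Klf3, of the same family, had 170 and 194 in KO, against 271.5 and 256 in WT (log2 fold change -0.53, limma adjusted p = 0.0254). Elf2, an ETS factor, had 38.0 and 60.3 in KO, against 91.0 and 87.7 in WT (log2 fold change -0.89, limma adjusted p = 0.0359). In the chromatin regulator list 1 of 12 peaks was higher and 1 lower. Satb1, a chromatin organiser, had 579 and 556 in KO, against 399 and 443 in WT (adjusted p = 0.012), and Kdm6b, a histone demethylase, had 218 and 208 in KO, against 279 and 309 in WT (adjusted p = 0.0387). Each of these 5 calls was lost without KO replicate 1 (adjusted p = 0.217, 0.337, 0.485, 0.221 and 0.233 in the order named) and without KO replicate 2 (0.178, 0.141, 0.0694, 0.154 and 0.363).

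Signalling and adhesion genes had calls in both directions. Tlr13, a sensor of bacterial ribosomal RNA in mice, had 147 and 166 in KO, against 261 and 249 in WT at its TSS (log2 fold change -0.71, SE 0.158, limma adjusted p = 0.00541, 0.138 without KO replicate 1). It was the 1 called peak of 13 in the innate sensing and NF-kB list. Pik3cd, the leukocyte PI3 kinase subunit, was the 1 of 9 in the PI3K and FOXO list, with 59.2 and 45.7 in KO, against 108.6 and 87.7 in WT (adjusted p = 0.0245, 0.0804 without KO replicate 1 and 0.342 without KO replicate 2). Cxcr4, the receptor that retains neutrophils in bone marrow, had 1053 and 1032 in KO, against 1337 and 1215 in WT over its TSS (log2 fold change -0.29, SE 0.0768, adjusted p = 0.0168). Its call was lost without KO replicate 1 (0.167), without KO replicate 2 (0.259) and under median centring (adjusted p = 0.0562). With Itgb2l it made up the calls in 23 adhesion and chemotaxis peaks.

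The cytokine receptor and kinase list had 1 of 25 peaks higher and 2 lower. Ptprj, a receptor tyrosine phosphatase, had 430 and 473 in KO, against 298 and 316 in WT at 37927 bp (limma adjusted p = 0.00471, 0.2 without KO replicate 2). Smad3, an effector of TGF-beta, had 89.2 and 115.7 in KO, against 151 and 177 in WT (adjusted p = 0.0279, 0.391 without KO replicate 1 and 0.0793 without KO replicate 2). Tnfrsf1b, a TNF receptor, had 93.6 and 90.8 in KO, against 141 and 148 in WT (adjusted p = 0.0385, 0.241 without KO replicate 1 and 0.312 without KO replicate 2). Among 44 peaks of the actin cytoskeleton list, 2 were higher and 1 lower. Both gains were neighbouring peaks of Apbb1ip, an adaptor in integrin activation, at 36713 and 37356 bp, the nearer with 103 and 143 in KO, against 79.2 and 71.0 in WT (adjusted p = 0.0489, 0.112 without KO replicate 1 and 0.615 without KO replicate 2). Arhgap25, which switches off Rac, had 87.4 and 106.7 in KO, against 164 and 174 in WT at its TSS (log2 fold change -0.80, adjusted p = 0.0093, 0.201 without KO replicate 1). Cyclic loess scaling also ended the calls of Klf13, Satb1, Elf2, Pik3cd, Smad3, Tnfrsf1b and Iqsec1 (adjusted p = 0.0557 to 0.0952), and median centring those of Tnfrsf1b (0.0568) and Kdm6b (0.0685). Scaling to the total over peaks ended both Apbb1ip calls (0.0743 and 0.0775), and with them every gain of the actin cytoskeleton list, and that of Iqsec1 (0.0685). Without WT replicate 2 the calls of Smad3 (0.0559), Kdm6b (0.0759) and the farther Apbb1ip peak (0.0541) were lost.

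Markers of other cell types had 4 first-intron peaks in all, none of which passed (0 at an unadjusted p below 0.05). Cx3cr1 (monocytes and macrophages) had 120 and 117 in KO, against 149.7 and 128 in WT. Cd34 (progenitors) had 83.9 and 103 in KO, against 92.5 and 54.3 in WT, and Col1a1 (stroma) had 64.5 and 89.4 in KO, against 101.3 and 91.9 in WT. The lists for B cells, NK cells, eosinophils with mast cells and basophils, and erythroid cells with megakaryocytes had no first-intron peak of this class.

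By chromosome, the median log2 fold change of first-intron peaks had the same sign as that of all peaks on 14 of 20 chromosomes and the opposite sign on 6. On chromosome 11 the median of 111 first-intron peaks was -0.15, with 3.60% higher and 7.21% lower, against -0.13, 3.89% and 9.73% over all 1491 peaks of that chromosome. Of the 8 lower first-intron peaks there, 4 are in Ksr1. On chromosome 13 the median of 111 was 0.16, with 5.41% higher and 1.80% lower, against 0.11, 9.71% and 2.11% over all 1184 peaks. The X chromosome went the other way, with a median of 0.12 over 46 first-intron peaks, against -0.05 over all 528 peaks. Chromosome 4 had 3 higher and 11 lower (2.86% and 10.5%, against 5.12% and 6.48% of all peaks), of which 6 are in Zfp982. Chromosome 19 had 9 higher and 1 lower among 66 (13.6% and 1.52%, against 5.87% and 4.196% of all peaks), and 3 of those gains are in Anxa1. These differences between shares were not tested.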

How the data were processed

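ATAC-seq libraries of 2 KO and 2 WT neutrophil samples were compared in the deposited consensus peak table (build mm9). Per the submitters' processing notes, the tools were MACS2 2.1.0, HOMER, DiffBind, BWA, Trimmomatic 0.32, bcl2fastq 2.16.0 and R 3.1.1, with no role or order given. The deposited signal of a peak is its reads divided by 1 scaling factor per library, as the values are whole multiples of 1 step per library within 0.001. Not given in the sources used are the normalization method, duplicate handling and any shift of read ends for the transposase. Distance to the TSS is a signed score in bp, per the file headers, and the listed width exceeds end minus start by 2. Depth is given in reads recovered from the steps, and intervals cover counting error only.

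Signal was tested as log2(signal + 1) by a two-sided limma fit (version 3.58.1, R version 4.3.3, mean-variance trend, Benjamini-Hochberg over all 23595 peaks), tested on simulated data first. The simulated reads had the same dispersion for every peak, so they cannot show whether the trend suits the real libraries. The pseudocount makes fold changes of low peaks too small. Host genes were matched by accession to RefSeq for 1966 peaks and taken from the deposited table for 9, and 1 is known by accession only. Members and gene lists were chosen with earlier results of these data known. Peaks named were the 12 of lowest p in each direction among called peaks whose groups do not overlap, the 8 of highest WT signal, the 3 host genes with most peaks (with ties), up to 4 per gene list, the lowest p per distance bin and direction, and those of Morrbid, Bcl2l11 or Acoxl. Other peaks of the same host genes were added after their values were seen. Alternatives were other pseudocounts, scalings, filters, a replicate block and leaving out each library. Some results are not reported here.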

Additional observations from a re-analysis of the deposited data

How the results depend on the processing

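Against 91 higher, 59 lower and a median log2 fold change of 0.0118, median centring gave 148 higher with a median of 0.0785, scaling to the total 52 higher with a median of -0.0429, and cyclic loess 66 higher and 50 lower with a median of 0.0345. Over all peaks, with 1434 higher and 1074 lower as deposited, these scalings gave 2248, 879 and 807 higher in the same order. The lower counts over all peaks were 777, 1319 and 888. Under cyclic loess, losses thus outnumbered gains over all peaks but not in first-intron peaks. Without the mean-variance trend limma called 0 higher and 3 lower, against 219 and 195 at an unadjusted p below 0.05. With the trend, 252 and 206 passed that unadjusted threshold, beside 3232 and 2949 of all 23595 peaks. Leaving out each library gave 9 to 218 higher and 15 to 125 lower. Without the peaks of Zfp982 and Morrbid, a choice made after seeing the data, 7 in place of 15 peaks beyond 50000 bp were lower. The lead over later-intron peaks, KO minus WT, was 0.00276, and -0.0179 under cyclic loess. The causes were not tested. Pseudocounts of 0.5 and 5 and a mean signal of at least 50 kept both counts within 1.5 times, and no called peak changed sign under the 12 alternative fits. Without a refit, 74 higher and 41 lower calls lay at least 1000 bp from a TSS, and 88 and 49 were nearest their host's TSS. With 1 peak per host 78 and 45 remained. These subsets hold the same calls, so their counts follow from the peaks kept and are no check of the calls. A replicate block gave 110 higher and 73 lower and lost none of the 150 calls. The labels do not say that replicate numbers pair libraries, and the deviations of the libraries numbered 1 correlated at -0.0392 over all peaks. Depth limits the WT libraries most, with medians of 72 and 75 reads per first-intron peak.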

Other observations

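Outside the peaks named by rule, 7 first-intron peaks with a called gain of at least 2-fold were picked out after their values were seen. They lie in Nt5c1a (log2 fold change 1.35), Rab27a (1.29), Dnajb6 (1.16), Gm15915 (1.08), Cped1 (1.06), Dagla (1.04) and Sncaip (1.01). Rab27a encodes a GTPase of granule exocytosis. Among losses, F2rl3, a protease-activated receptor, and Ripor1 reached -1.001 and -1.01. None of the gains or losses in this paragraph is among the calls that stood with each library left out in turn.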
